A study of Homo sapiens with 7 samples.

Results

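A set of 9 genes known as targets or partners of GATA factors in the heart was examined in a cell of another lineage, the human colorectal carcinoma line LS174T, at the peaks listed for the transcription factor GATA6. The genes, NPPA, NPPB, MYH6, NKX2-5, TBX5, HAND2, MYOCD, MEF2C and TBX20, were represented by 8 windows of hg19 that covered 2.11 Mb in all, with NPPA and NPPB in 1 window. A peak belonged to a window when its summit, the position of its greatest height, lay inside. By this rule 4 of the 7568 listed GATA6 peaks lay in the windows. The windows were set by position and not by the peaks' scores, but the genes were chosen with earlier results of these data known.

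The study mapped GATA6 binding by chromatin immunoprecipitation followed by sequencing (ChIP-seq). LS174T cells, described only as a colorectal carcinoma line in the labels, were grown in serum, without any stated treatment, and cross-linked with formaldehyde. Of 7 libraries, 3 were precipitated with an antibody to human GATA6, 1 was input DNA and 3 were histone modifications. Separate cultures are not stated for the 3 GATA6 libraries. The single GATA6 peak list was used here; it gave no value per library, and neither replicate error nor the depth of the libraries is known.

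GATA6 is a zinc-finger protein that recognises the letters GATA in DNA. The GATA family works in tissues of endodermal and mesodermal origin. In the developing heart GATA4, GATA5 and GATA6 act together with homeobox, T-box, bHLH and MADS-box partners, whereas in the gut epithelium GATA6 acts with other factors of endoderm. The genes examined are therefore known GATA targets or partners in a tissue other than the one sampled. The list holds no expression values, so whether LS174T cells express any of these genes was not tested.

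Peaks were listed in 3 of the 8 windows, those of NPPA and NPPB (1 peak), MYOCD (1 peak) and MEF2C (2 peaks). The windows of MYH6, NKX2-5, TBX5, HAND2 and TBX20 held 0. This came to 1.90 peaks per Mb, against 2.61 per Mb over the spans of chromosomes 1 to 22 and X, a ratio of 0.727. A count of 4 has a 95% exact Poisson interval of 1.09 to 10.2, which covers counting error only, and the density of the whole list would place 5.50 peaks in windows of this length. The interval of the ratio ran from 0.198 to 1.86, so neither a deficit nor an excess of peaks was detectable with this number of windows. Since listed peaks gather locally, the interval is too narrow. Without the MEF2C window, which supplied 2 of the 4 peaks, the ratio was 0.446.

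Each window was read against every window of its own size laid side by side over chromosomes 1 to 22 and X. At least 1 peak lay in 32.2% of 13155 windows of the size of the NPPA and NPPB window. The share was 41.4% at the size of the MYOCD window and 46.6% at the size of the MEF2C window, and 24.6% of the latter held at least 2 peaks. For the windows that held 0 peaks, the share of same-size windows with a peak was 33.3% for MYH6, 31.1% for NKX2-5, 36.3% for TBX5, 32.2% for HAND2 and 36.3% for TBX20. Windows without a peak were in the majority at every size, from 53.4% at the size of MEF2C to 68.9% at that of NKX2-5. The shares added up to 2.89 of 8 windows with a peak, beside the 3 observed. The number of cardiac windows with a peak was therefore near the background, and no distinction of these loci from the rest of the genome can be read from it. This background includes long peak-free stretches, whereas each cardiac window was set for a gene, and windows of other genes were not compared. With the list spread over only the 1 Mb bins that hold a peak, the ratio of peaks per Mb was 0.540. This setting lowers the ratio by construction. The cardiac windows kept their full length, though those of TBX5, HAND2 and TBX20 lie in bins without a peak. No deficit can be read from it.

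**Figure D1:**
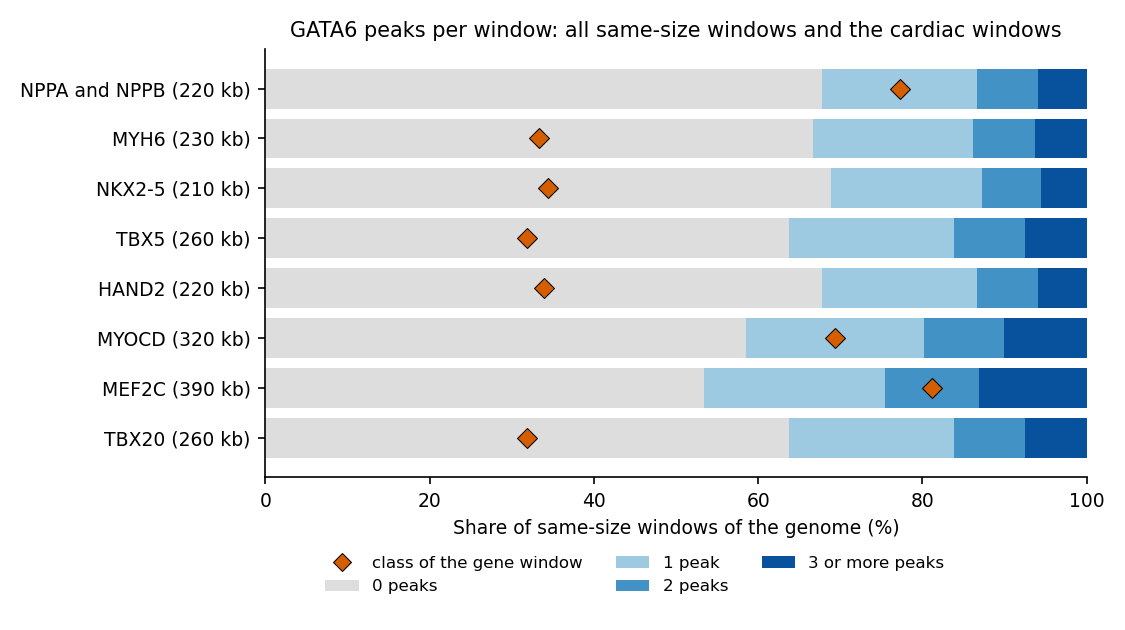
Stacked bars give the percentage of all windows of the same size on chromosomes 1 to 22 and X that held 0, 1, 2 or 3 or more GATA6 peaks, 1 bar per cardiac window with its size in kb. The orange diamond marks the class of the cardiac window itself (its place within the class has no meaning). In 5 of 8 windows it lies in the grey class of 0 peaks, which is also the most frequent class at every size.

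The promoters of several of these genes carry the letters that GATA factors recognise. RefSeq sequences (GRCh38.p14) of the 250 bases before a transcription start were searched for GATA on both strands (GATA or TATC). They were found for 6 of the 9 genes, with 13 starts in all. NPPB, NKX2-5 and MYOCD were not in the table. At least 1 match lay before 10 of the 13 starts, against 45.6% of all 35116 promoters in the table, but 7 of the 13 starts belong to MEF2C. By gene, 5 of the 6 had a match before at least 1 start, and no such share was computed for all genes. The background was not matched for G or C content, which ran from 24.8% to 74% among the 13. No enrichment can be read from these counts. The longer AGATAA (or TTATCT), which contains the shorter motif, lay before 1 of the 13 starts, that of HAND2, against 9.17% of all promoters. A match is a description of letters and not a site.

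The promoters of NPPA, whose window held 1 peak, and of MYH6, TBX5 and HAND2, whose windows held 0, are shown as examples with GATA letters. Neither state is unusual, since 45.6% of all promoters held a match and most same-size windows held no peak. For TBX5 the outermost of the starts in the table is shown. Matches to GATA or TATC are in capitals, all are read 5′ to 3′ on the minus strand, and the coordinates are those of GRCh38.p14, not of the peaks.
NPPA, chr1:11847784-11848033: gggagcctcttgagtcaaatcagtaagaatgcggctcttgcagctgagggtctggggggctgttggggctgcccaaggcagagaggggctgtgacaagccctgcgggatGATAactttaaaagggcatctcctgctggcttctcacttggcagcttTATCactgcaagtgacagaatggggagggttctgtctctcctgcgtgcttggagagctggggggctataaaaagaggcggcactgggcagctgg
MYH6, chr14:23408274-23408523: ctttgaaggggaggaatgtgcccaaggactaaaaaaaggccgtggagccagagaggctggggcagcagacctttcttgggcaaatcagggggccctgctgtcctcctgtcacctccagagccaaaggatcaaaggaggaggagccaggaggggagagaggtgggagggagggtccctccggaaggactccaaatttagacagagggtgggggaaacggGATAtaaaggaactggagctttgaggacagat
TBX5, chr12:114408443-114408692: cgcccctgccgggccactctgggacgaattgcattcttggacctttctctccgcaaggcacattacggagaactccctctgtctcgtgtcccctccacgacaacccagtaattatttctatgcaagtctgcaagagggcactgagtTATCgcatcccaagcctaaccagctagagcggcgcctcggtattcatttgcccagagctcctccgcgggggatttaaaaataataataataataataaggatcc
HAND2, chr4:173530230-173530479: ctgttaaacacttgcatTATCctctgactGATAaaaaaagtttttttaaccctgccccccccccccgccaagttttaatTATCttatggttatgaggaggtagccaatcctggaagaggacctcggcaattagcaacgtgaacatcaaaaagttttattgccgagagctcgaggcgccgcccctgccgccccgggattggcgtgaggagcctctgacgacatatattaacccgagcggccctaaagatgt

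NPPA held 2 matches, the first base of which lay at −141 and −94 from the start. MYH6 held 1 at −32, and the TBX5 promoter shown held 1 at −104. HAND2 held 3, at −233, −221 and −171, and the last of these is part of the AGATAA match. The MYH6, TBX5 and HAND2 promoters thus had these letters while 0 peaks were listed in their windows. The absence of a listed peak does not show that GATA6 was absent, since a peak list holds only regions that pass the caller's threshold. The smallest listed height was 6 fragments.

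NPPA and NPPB encode natriuretic peptides, hormones that the heart releases and that lower blood volume and pressure. In RefSeq's gene order they are direct neighbours, between CLCN6 and KIAA2013. Their shared window, chr1:11800000-12020000, held 1 peak, at chr1:11968279-11968725. Its height, the number of fragments at the summit, was 19, with a 95% exact Poisson interval of 11.4 to 29.7. Its fold over the local background was 15.55. It was the highest and the widest of the 4 peaks, and its width of 447 bp exceeded that of 94.0% of the list. Its height was above that of 62.6% of the list.

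The peak lay 58.4 kb beyond the centre of the NPPA and NPPB window and 51.6 kb from its end. Since no hg19 annotation was used here, this peak and the others could not be placed in an exon, an intron or a promoter, or assigned to a gene. The nearest other listed peak was 236 kb away. It was the first of 4 peaks within 500 kb of the window's centre but outside the window, all on the side of increasing coordinates, with heights of 10, 20, 24 and 17. On the other side the nearest peak lay 1265 kb from the window. The list was thus not sparse around these genes, but its peaks lay on 1 side.

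MYH6 encodes the alpha myosin heavy chain, a motor protein of the cardiac sarcomere, and its neighbour in RefSeq's order is MYH7, which encodes the beta chain. Its window, chr14:23750000-23980000, held 0 peaks. It lay in a peak-free interval of 0.648 Mb between 2 low peaks, each of 9 fragments, a height above that of 5.44% of the list. Of the length between neighbouring summits in the whole list, 67.4% lay in intervals at least this long, so the interval was of an ordinary size.

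NKX2-5 encodes a homeobox factor of early heart cells. Its window, chr5:172560000-172770000, held 0 peaks, but the nearest peak was close to its edge. This peak lay 38.8 kb before the window, at chr5:172520931-172521496. It reached 41 fragments (95% exact Poisson interval 29.4 to 55.6) at the summit, its fold was 41.1 and its −log10 p was 51.61. It stood above 94.7% of the list in height and was higher than each of the 4 peaks inside the windows, although its interval still touched that of the NPPA and NPPB peak. With all windows widened by 100 kb on both sides, it was the 1 peak gained, and 4 of 8 windows then held a peak. Over the genome, 53.8% of windows of 0.5 Mb, a size within the range of the widened windows, held at least 1 peak. The count was thus near the background, and the ratio of peaks per Mb fell from 0.727 to 0.517. The peaks just inside an edge were those of MYOCD, 45.6 kb from the end of its window, and of NPPA and NPPB.

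The T-box factors TBX5 and TBX20 work with NKX2-5 and GATA factors on cardiac genes. Their windows, chr12:114690000-114950000 for TBX5 and chr7:35140000-35400000 for TBX20, held 0 peaks. Also, 0 peaks lay within 0.5 Mb of either centre, where windows of 1 Mb elsewhere had a median of 2 and 73.3% had at least 1. TBX5 lay in the longest peak-free interval of the 5, 2.45 Mb. Only 149 of the 7539 intervals between neighbouring summits (1.98%) were as long, but a given position falls more often in a long interval, and 21.2% of the length lay in intervals of this size or more. The peaks that bounded it had heights of 12 and 11. For TBX20 the interval was 1.38 Mb, and 41.3% of the length lay in intervals as long. Its bounding peaks had heights of 10 and 12.

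HAND2 encodes a bHLH factor of the developing right ventricle and limb. Its window, chr4:174340000-174560000, held 0 peaks, and 0 lay within 0.5 Mb of its centre. The interval around it was 1.38 Mb long, bounded by peaks of 14 and 9 fragments. Within 1 Mb of the centre there were 6 peaks, where windows of 2 Mb had a median of 4.

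MYOCD encodes myocardin, a coactivator of serum response factor in cardiac and smooth muscle. Its window, chr17:12460000-12780000, held 1 peak, on chromosome 17 from 12734241 to 12734537, 114 kb beyond the centre. The height was 17 fragments (9.90 to 27.2) and the fold 16.23, the largest fold of the 4. Its width was 297 bp and its −log10 p 15.87, above 62.2% of the list. The nearest other summit was 585 kb away, and on the other side of the window the nearest lay 1374 kb from its start. The rank of these distances among all intervals was not computed. For scale, the interval around NKX2-5 was 0.643 Mb, and 17.0% of all intervals between neighbouring summits were at least as long. For the interval of 1.38 Mb around TBX20 the share was 6.25%. Chromosome 17 as a whole carried 3.34 peaks per Mb, and 50.2% of windows of this size on it held a peak.

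MEF2C encodes a MADS-box factor that acts with GATA factors and myocardin in muscle and that also works in neurons, bone and vessels. Its window, chr5:87910000-88300000, was the largest at 390 kb and held 2 peaks on chromosome 5, from 88039417 to 88039591 and from 88164460 to 88164652. They lay 125 kb apart, on either side of the centre. The first reached 10 fragments (4.80 to 18.4), at a fold of 14.32. The second reached 13 (6.92 to 22.2), at a fold of 14.89. These were low, narrow peaks. The first had the smallest width of the list, 175 bp, which 9.04% of all peaks shared, and the second was 193 bp wide. Their −log10 p, 9.59 and 12.12, exceeded that of 26.5% and 43.9% of the list. The nearest peak outside the window, 221 kb before it, was higher, at 28 fragments with a fold of 45.82.

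**Figure D2:**
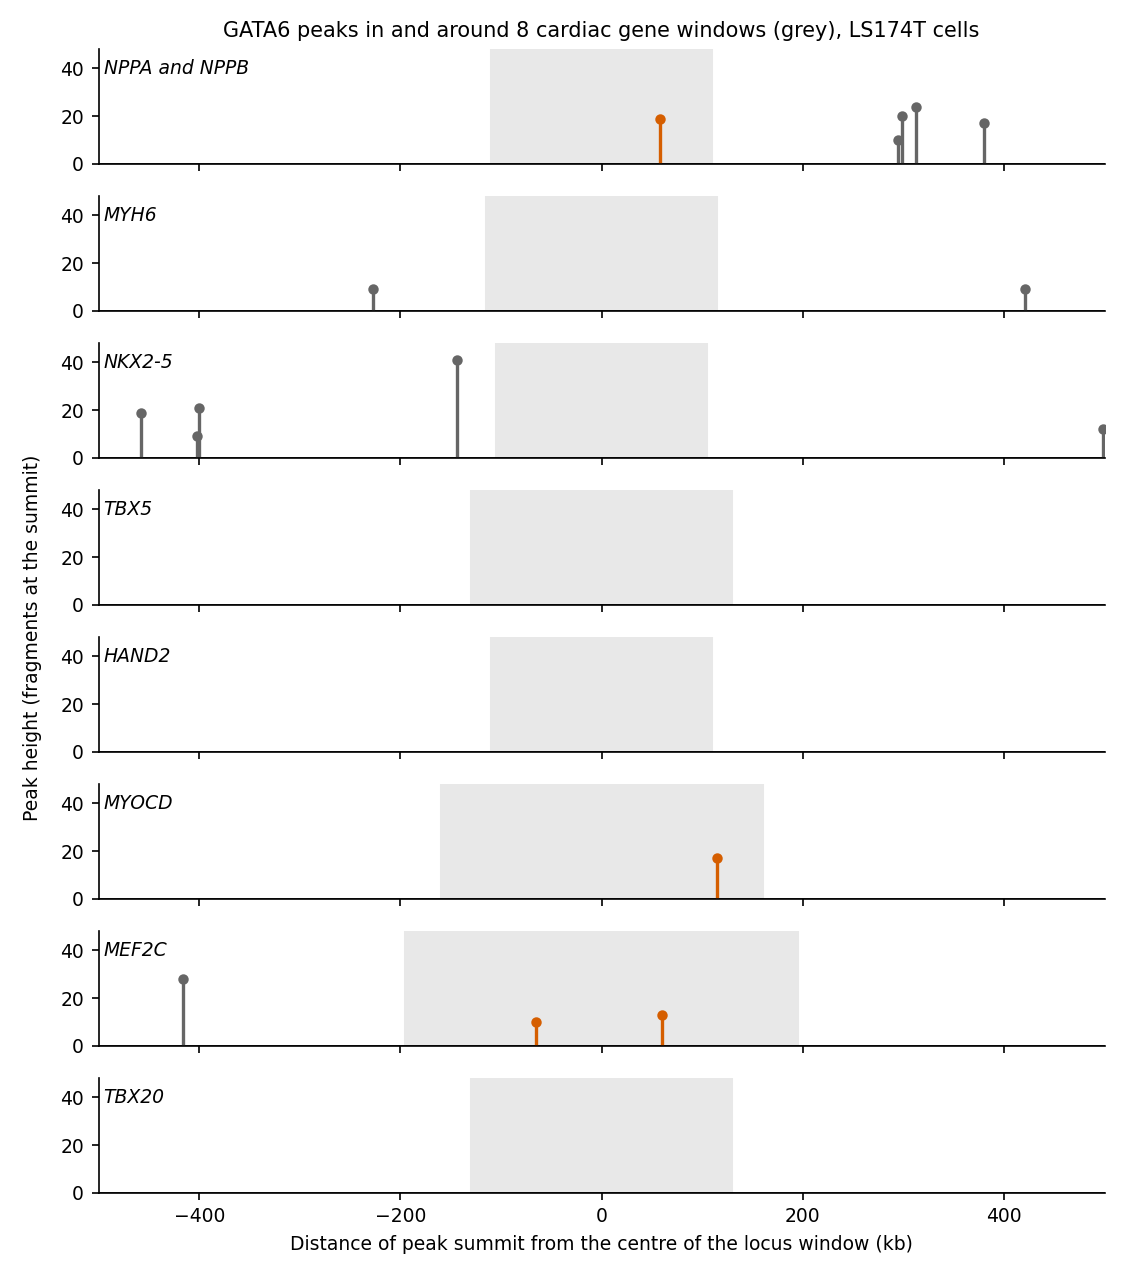
Each panel shows 1 window (grey) and the GATA6 peaks within 500 kb of its centre, with the distance of the summit from the centre in kb on the horizontal axis and the height in fragments on the vertical axis, without error bars. Orange peaks lie inside a window and grey-black ones outside. The 4 peaks inside have heights from 10 to 19, the highest peak drawn is the one of 41 beside the NKX2-5 window, and the panels of TBX5, HAND2 and TBX20 are empty.

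The Poisson intervals of the heights of the 4 peaks in the windows all overlapped, and a difference in height among them was not tested. Heights ran from 10 to 19 fragments with a median of 15, and the list's median was 16. The folds lay close together, from 14.32 to 16.23 (median 15.2), and all 4 exceeded the list's median of 14.03. All 4 reached a fold of 10, as did 76.5% of the list, and all 4 had a q of at most 0.01, as did 99.3%. In height and in −log10 p, 2 of the 4 stood below the list's median. In height, the NPPA and NPPB peak and the MYOCD peak were middling, above 62.6% and 54.1% of the list. The first and second MEF2C peaks were low, above 10.4% and 30.5%. None of the 4 approached the list's highest peak, which had 130 fragments.

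The local background at a peak, its height divided by its fold, was 1.22 fragments at the NPPA and NPPB peak and 1.05 at the MYOCD peak. It was 0.698 and 0.873 at the first and second MEF2C peak. The list's median was 1.05 and its lowest value 0.489. Because the 4 folds were nearly equal, these values follow the heights by construction and are not a separate result.

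**Figure D3:**
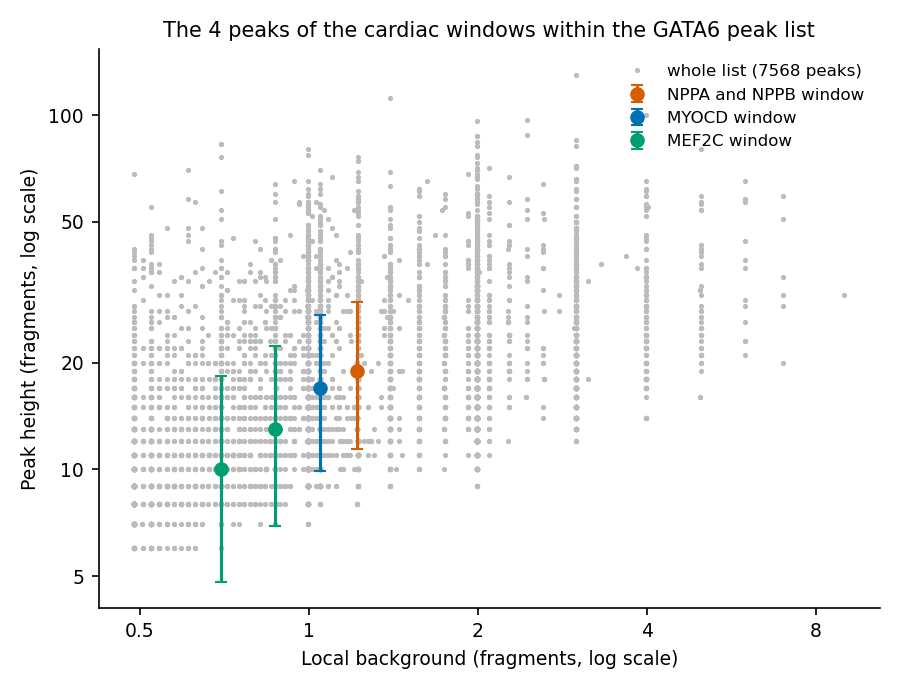
Height of each listed peak (fragments, log scale) against its local background (fragments, log scale), with the whole list in grey and the peaks of the cardiac windows in colour with 95% exact Poisson intervals on the height. The coloured peaks, at heights from 10 to 19 and backgrounds from 0.698 to 1.22, lie within the dense part of the list.

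At wider reach the loci covered a broad range of peak counts. Within 1 Mb of the window's centre, NKX2-5 had 10 peaks, NPPA and NPPB 8, MYH6 7, HAND2 6 and TBX5 5, while MEF2C and TBX20 had 3 each and MYOCD 2. Windows of 2 Mb elsewhere had a median of 4, with an interquartile range of 2 to 7. Loci whose windows held peaks stood at both ends of this range, MYOCD and MEF2C low and NPPA and NPPB high. So did loci whose windows held 0, TBX20 low and NKX2-5 high. Within 2 Mb the loci ran from 6 peaks (MEF2C) to 18 (MYH6), and 5 of 8 lay below the median of 10 for windows of that size. NPPA and NPPB, with 9, and HAND2, with 7, were among them, although these loci lay above the median within 1 Mb. Windows of 4 Mb over the genome held 10.5 ± 6.95 peaks (mean ± SD, 696 windows), and 7 of the 8 loci lay within 1 SD of that mean. The share of the 696 windows within 1 SD was not computed, so this count does not compare the loci with the genome.

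**Figure D4:**
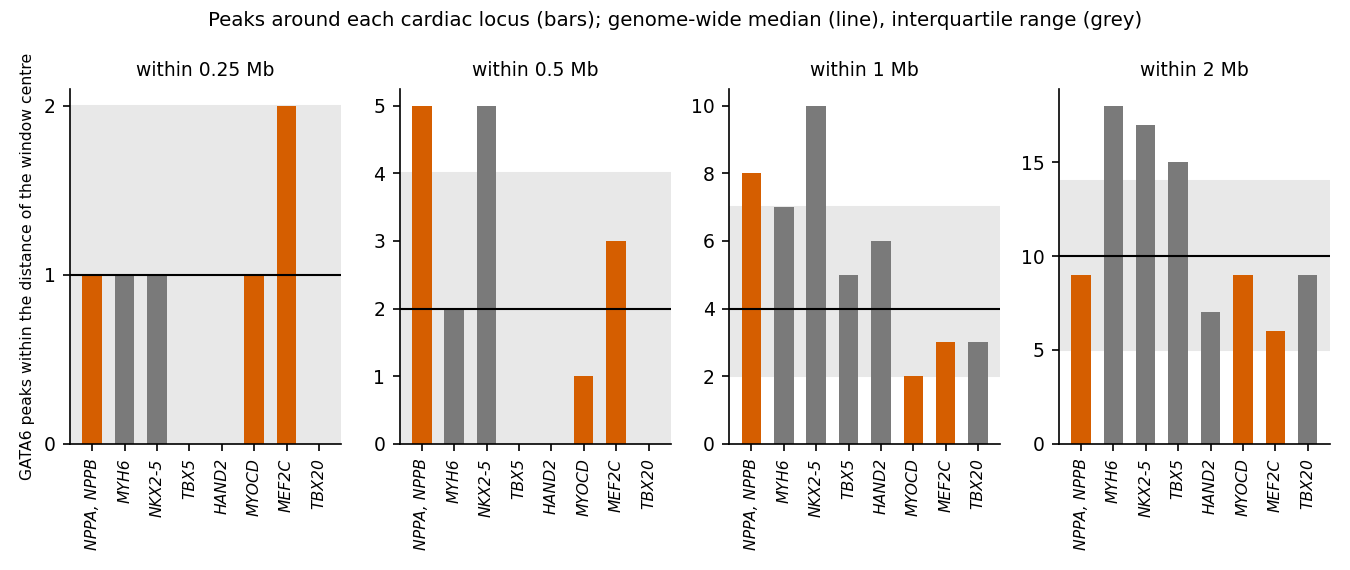
Number of GATA6 peaks within 0.25, 0.5, 1 and 2 Mb of the centre of each cardiac window (bars, 1 panel per distance), with windows that hold a peak in orange and those without in grey. The black line is the median and the pale band the interquartile range over all windows of the same total width. TBX5, HAND2 and TBX20 have 0 peaks up to 0.5 Mb. MYOCD, MEF2C and TBX20 lie below the median at both 1 and 2 Mb.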

How the data were processed

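Of 7 LS174T libraries, 3 were GATA6 ChIP-seq, and the single GATA6 peak list was analysed. Which of the 3 libraries it draws on is not stated. The input and histone libraries were not used here. CASAVA 1.8, BWA 0.5.9-r16 and build hg19 are named for the GATA6 libraries, per the submitters' processing notes. The sources used here do not name the peak caller or its control, nor any pooling of libraries. Per the file headers, the authors deposited for each peak a pileup (a coverage signal in fragments, called the height here), a fold enrichment (a linear ratio) and −log10 values of p and q. These scores are the authors' own.

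Windows were read in Python 3.11.15 (pandas 2.3.3, SciPy 1.17.1). Same-size windows were laid side by side from the first to the last summit on each of chromosomes 1 to 22 and X. They stand in for random draws, with no test. The counting code, not the result, was tested on simulated data with known counts. Local background was height over fold; the Poisson p from it matched the deposited −log10 p within 0.0159. The members and lists were chosen with earlier results of these data known, so no p-value is given. The genes named are the 9 members and their neighbours in RefSeq's order (GRCh38.p14, names only). The planned comparison with other gene lists needs hg19 annotation and was not run. Alternatives were another placement rule, stricter score limits, wider windows, joined summits, other tilings and each window left out.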

Additional observations from a re-analysis of the deposited data

How the results depend on the processing

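Of 57 values under the alternatives, 49 stayed within the limits set around the reported value. The limit was 1.5 times for counts of peaks or windows and the 95% Poisson interval for ratios and the median height. For shares of same-size windows it was their 95% Wilson interval. The Poisson interval of the ratio, 0.198 to 1.86, is wide, so a ratio that stayed within it may still have moved far. Among peaks whose −log10 p was at or above the list's median, 2 were in the windows in place of 4, and the ratio of peaks per Mb was 0.726, since the list shrank likewise. That ratio was 0.950 among peaks with a fold of at least 10 and 0.517 with windows widened by 100 kb on both sides. It was 0.540 with the list spread over occupied 1 Mb bins only, which is lower by construction since the windows kept their full length. Leaving out 1 window at a time gave ratios from 0.446 (without MEF2C) to 0.829 (without TBX5 or TBX20) and median heights from 13 to 18. On the window's own chromosome alone, the share of same-size windows with a peak was 37.8% for NPPA and NPPB and 37.7% for MYH6. It was 27.8% for NKX2-5, 44.2% for TBX5, 33.4% for HAND2, 50.2% for MYOCD and 41.2% for MEF2C. Each of these shares fell outside its limits, as did the count of 2 peaks above. The share for TBX20, 36.3%, stayed within its limits. Shifted and sliding windows read the same list, so their shares had little room to move. No paired analysis was possible because the list holds no value per library, and for the same reason no GATA6 library could be left out. Few windows and an unknown depth limit all counts: weak binding below the caller's threshold cannot be seen.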

Other observations

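MEF2C had 7 transcription starts in the RefSeq table (GRCh38.p14), more than any other gene of the set, and the letters GATA or TATC within the 250 bases before them numbered from 0 to 6. No match lay before 2 of the starts, and the start with 6 matches was the richest of all 13 examined. Which of these starts lay nearest to either of the MEF2C peaks was not examined, since the peaks are in hg19. TBX20, whose window held 0 peaks, had 0 matches before its single start in the table, in a stretch of 74% G or C.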
